A study of Mus musculus with 8 samples.

Results

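Zinc and cadmium transporter genes were examined in the whole brain of newborn mice after maternal Cd exposure. They were 10 genes chosen by name, namely *Slc39a8*, *Slc39a14*, *Slc39a6*, *Slc39a10*, *Slc39a12* and *Slc39a4* of the importer family and *Slc30a1*, *Slc30a3*, *Slc30a4* and *Slc30a10* of the exporter family, out of 49585 genes in the count table. Each symbol matched 1 Ensembl identifier, and all 10 passed the filter on low counts, which kept 23113 genes. The other 14 *Slc39a* and *Slc30a* genes, which bring the families to 24 genes, and 16 metal handling genes were read beside them.

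RNA-seq was performed on 8 female F1 pups of a C57BL/6J mother and a CAST/EiJ father (B × C), collected within the day of birth and labelled postnatal day 1. The dams drank water with 0 ppm or 50 ppm CdCl2 before mating and through pregnancy, with 4 brains per dose, each from a different litter. All 8 pups carried the same hybrid genome, and their reads were counted on the C57BL/6J genome (GRCm38), so reads of the CAST/EiJ allele that differ from it may have been lost in all libraries alike. Between 22916434 and 30708087 reads per library were counted on genes, and levels are given in CPM, which are counts brought to the same sequencing depth with TMM-normalized library sizes.

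Neuronal markers were abundant in every library, with a summed level of 3842 to 4401 CPM over 6 genes, of which *Map2* was the most abundant (1855 CPM on average). *Tubb3*, also a neuronal marker, was listed at 0 in all 8 libraries. No annotated exon of another gene overlaps it, and since it is widely expressed in neurons this 0 is in doubt and is not read as absence of its RNA. The 0 ppm libraries 1 and 2 stood apart from the rest in markers of hindbrain and spinal cord. The summed level of these 8 markers was 0.341, 3.24, 45.2 and 53.7 CPM in the 0 ppm libraries 1 to 4 and 160.0, 73.4, 43.3 and 62.9 CPM in the 50 ppm libraries. *Slc6a5* was the most abundant of them, and *Hoxa3* and *Hoxa4* were listed at 0 throughout. Exons of other genes cover 8.0% of *Hoxa3* on the same strand and 25.4% on the opposite strand. On the opposite strand they cover 16.0% of *Hoxa4*. These 0 values are also in doubt and are not read as absence of RNA. Because the 0 ppm libraries 1 and 2 stood apart, the transporter genes and the counts of marker genes are also given without them. That fit of 2 against 4 brains was chosen after seeing the data.

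Zinc moves across membranes through 2 protein families with opposite directions. ZIP proteins, encoded by *Slc39a* genes, carry zinc into the cytosol from outside the cell or from organelles, and ZnT proteins, encoded by *Slc30a* genes, carry it out of the cytosol into organelles, vesicles or the extracellular space. Some members accept other metals, and ZIP8 (*Slc39a8*) and ZIP14 (*Slc39a14*) are known routes by which cadmium, manganese and iron enter cells. Cytosolic zinc and cadmium are bound by metallothioneins, and the zinc sensor MTF1 drives transcription of metallothionein genes and of *Slc30a1* when free zinc rises.

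None of the 10 genes was differentially expressed between 50 ppm and 0 ppm in edgeR's quasi-likelihood test after Benjamini-Hochberg adjustment over all genes tested (adjusted p = 0.999 for each), in a comparison that called 4 genes, or 0.0173% of those tested. DESeq2 also called 0 of the 10, against 18 genes or 0.0862% of the 20871 to which it gave an adjusted p. At an unadjusted p under 0.05, edgeR counted 3 of the 10 genes, *Slc39a12*, *Slc30a3* and *Slc30a10*, each with a higher fitted level at 50 ppm, where 3.75% of all genes had such a p in either direction and 2.31% had it with a higher level at 50 ppm. DESeq2 also counted 3 of the 10, where 2.81% of all genes had such a p. The 2 doses overlapped in all 10 genes, where complete separation was seen in 2.09% of all genes. The median log2 fold change over the 10 was 0.0044, with 6 above 0 and 4 below, and over all genes tested it was -0.0033.

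**Figure D1:**
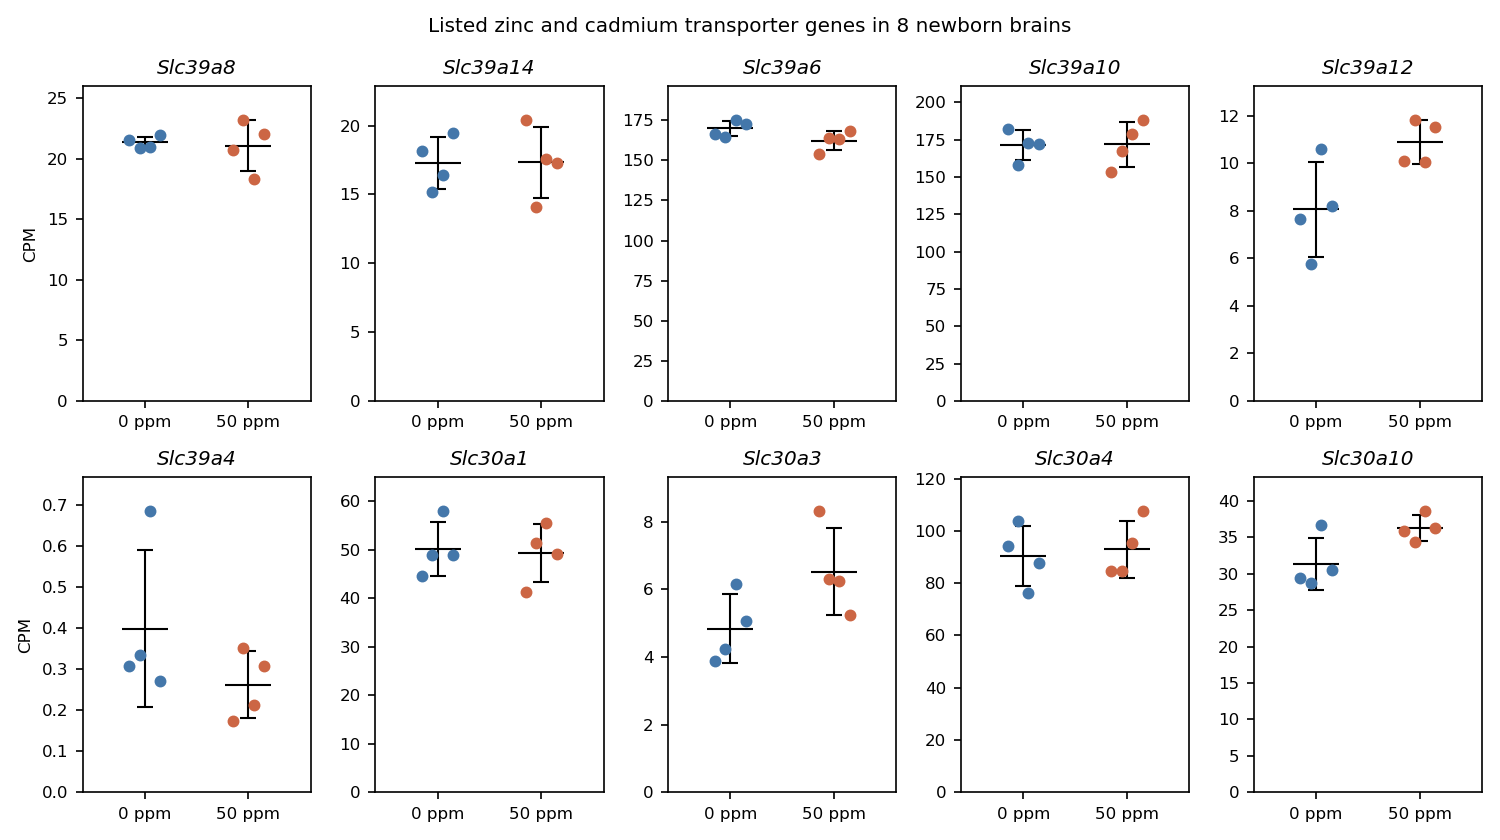
CPM of the 10 listed genes in each brain (points; 0 ppm in blue, 50 ppm in orange), with the mean and SD of each dose (n = 4) in black; every axis starts at 0. The doses overlap in each panel, and the 50 ppm means of *Slc39a12*, *Slc30a3* and *Slc30a10* are 1.35-fold, 1.35-fold and 1.16-fold those of 0 ppm in the fit.

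Both known cadmium carriers among the importers had nearly equal levels at the 2 doses. *Slc39a8* (ENSMUSG00000053897, chr3:135825279-135888572) measured 21.6, 20.9, 21.0 and 21.9 CPM in the 0 ppm brains and 20.7, 23.2, 18.4 and 22.1 CPM in the 50 ppm brains. The control brains lay within a narrow band, and the exposed brains fell on both sides of it, with 2 above all controls and 2 below. Its log2 fold change was -0.02 with a standard error (SE) of 0.10 and a 95% interval of -0.22 to 0.18. *Slc39a14* (ENSMUSG00000022094, chr14:70303469-70351425) measured 18.1, 15.2, 16.4 and 19.5 CPM in the control brains and 20.4, 14.1, 17.6 and 17.2 CPM in the exposed brains. The highest and the lowest of the 8 brains were both exposed ones, and the log2 fold change was 0.0031 (SE 0.12, 95% interval -0.25 to 0.25).

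*Slc39a6* and *Slc39a10* encode related ZIP proteins of the LIV-1 subfamily that act at the plasma membrane. *Slc39a6* (ENSMUSG00000024270, chr18:24579881-24603817) measured 166.7, 164.7, 175.3 and 172.7 CPM in the control brains and 153.8, 164.0, 163.0 and 168.3 CPM in the exposed brains. The groups overlapped because 1 exposed brain, the 50 ppm replicate 4, lay above 2 control brains, and the other 3 lay below all controls. The mean was 169.8 ± 4.98 CPM (SD, n = 4) at 0 ppm and 162.3 ± 6.11 CPM at 50 ppm, and the log2 fold change of -0.07 (SE 0.06, edgeR adjusted p = 0.999) did not pass the test. *Slc39a10* (ENSMUSG00000025986, chr1:46807544-46892852) ranged from 158.1 to 182.0 CPM at 0 ppm and from 153.5 to 188.4 CPM at 50 ppm, so that the exposed range enclosed the control range. Its log2 fold change was 0.0058 with a 95% interval of -0.15 to 0.16, which is among the narrowest of the 10.

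*Slc39a12* (ENSMUSG00000036949, chr2:14388316-14494977) encodes ZIP12, a zinc importer for which brain is a main site of expression. It measured 7.65, 5.77, 10.6 and 8.21 CPM in the 0 ppm brains and 10.1, 11.8, 10.1 and 11.5 CPM in the 50 ppm brains. The exposed brains lay close together and 3 of the 4 controls lay below all of them, but the 0 ppm replicate 3 exceeded 2 exposed brains. The mean was 8.06 ± 2.00 CPM (SD, n = 4) at 0 ppm and 10.9 ± 0.927 CPM at 50 ppm. The log2 fold change was 0.43 (SE 0.16, 95% interval 0.10 to 0.76) with an unadjusted p of 0.0128, the smallest of the 10, and an adjusted p of 0.999 in edgeR. Without the 0 ppm libraries 1 and 2 it was 0.20.

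*Slc39a4* (ENSMUSG00000063354, chr15:76612383-76617384) encodes the importer that takes up dietary zinc in the intestine, and it was near the limit of detection in brain. It had 9, 9, 21 and 7 counts in the 0 ppm libraries and 5, 10, 6 and 7 counts in the 50 ppm libraries, or 0.175 to 0.686 CPM. The highest value was that of the 0 ppm replicate 3, and the other 7 libraries lay within 0.175 to 0.351 CPM. The log2 fold change of -0.62 had a 95% interval of -1.54 to 0.30 and was -0.22 without that library. It did not pass the test (edgeR adjusted p = 0.999), and the upper end of the interval corresponds to a level 1.23-fold that of 0 ppm.

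Among the exporters, *Slc30a1* (ENSMUSG00000037434, chr1:191906767-191913247) encodes ZnT1, which carries zinc out of the cell and is known to be driven by MTF1. Its upstream sequence is shown with those of *Mt1*, a classical MTF1 target, and *Slc30a10*, which was chosen after the matches were seen, as the listed gene with the most of them. Each run is the 250 bases before the RefSeq start on GRCm38.p6, and capitals mark the core of the metal response element, searched as TGCACNC and TGCGCNC on both strands.
Slc30a1 (chr1:191906531-191906780, plus strand): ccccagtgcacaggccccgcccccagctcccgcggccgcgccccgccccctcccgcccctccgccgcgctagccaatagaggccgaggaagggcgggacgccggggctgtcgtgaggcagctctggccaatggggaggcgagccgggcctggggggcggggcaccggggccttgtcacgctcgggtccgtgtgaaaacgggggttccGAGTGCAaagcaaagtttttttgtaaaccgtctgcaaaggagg
Slc30a10 (chr1:185454598-185454847, plus strand): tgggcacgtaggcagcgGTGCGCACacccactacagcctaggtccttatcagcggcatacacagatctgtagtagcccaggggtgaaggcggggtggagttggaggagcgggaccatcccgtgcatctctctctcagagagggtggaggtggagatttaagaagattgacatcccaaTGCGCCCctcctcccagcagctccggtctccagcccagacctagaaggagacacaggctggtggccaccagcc
Mt1 (chr8:94178839-94179088, plus strand): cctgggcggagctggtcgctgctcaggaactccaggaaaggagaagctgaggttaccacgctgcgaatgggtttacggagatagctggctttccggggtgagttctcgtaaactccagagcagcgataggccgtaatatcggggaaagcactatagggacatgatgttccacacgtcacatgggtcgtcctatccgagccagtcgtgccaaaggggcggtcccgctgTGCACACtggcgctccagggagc
By the GENCODE annotation the last 14 bases before the *Slc30a1* start and the last 7 before the *Mt1* start lie in an exon, and none of the *Slc30a10* bases does. *Slc30a1* and *Mt1* had 1 match each, ending 36 and 16 bases before the start. *Slc30a10* had 3, of which 2 overlap as the forward and reverse reading of the same letters. *Mt2* also had 3, with all 250 bases of its window in an exon, and *Mt3* had 0. Letters outside the 250 bases were not searched, so these counts do not cover all such sites of a gene. At least 1 match was present in 21.4% of the 32851 mouse promoters of this length, at least 2 in 5.17% and at least 3 in 1.26%. The promoter table held 10 starts for 7 of the 10 listed genes, and 5 of the 10 starts had a match. *Slc30a4* had 2 at its start, *Slc30a3* and *Slc39a8* had 1 at 1 of their 2 starts, and *Slc39a12* and *Slc39a10* had 0. A match describes the letters of the window and no binding was measured.

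*Slc30a1* measured 44.6, 48.9, 57.9 and 48.9 CPM in the control brains and 41.2, 51.3, 55.6 and 49.1 CPM in the exposed brains. The lowest brain was exposed and the highest was a control, and the log2 fold change was -0.02 (SE 0.10, 95% interval -0.23 to 0.18). *Slc30a4* (ENSMUSG00000005802, chr2:122681233-122702663), whose product ZnT4 loads zinc into endosomal vesicles, ranged from 76.4 to 103.9 CPM at 0 ppm and from 84.6 to 107.5 CPM at 50 ppm. Its log2 fold change was 0.04 (SE 0.10, 95% interval -0.16 to 0.24). Without the 0 ppm libraries 1 and 2 it was 0.18, with an unadjusted p of 0.0871, the smallest of the 10 in that fit, and an adjusted p of 0.998 in edgeR, and *Slc30a1* was at -0.12.

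*Slc30a3* (ENSMUSG00000029151, chr5:31086106-31108237) encodes ZnT3, which fills synaptic vesicles of glutamatergic neurons with zinc. It measured 3.89, 4.24, 6.17 and 5.07 CPM in the 0 ppm brains and 8.31, 6.32, 6.24 and 5.25 CPM in the 50 ppm brains. The exposed brains included 3 above all controls, while the 50 ppm replicate 4 lay below the 0 ppm replicate 3. The mean was 4.84 ± 1.01 CPM (SD, n = 4) at 0 ppm and 6.53 ± 1.28 CPM at 50 ppm. The log2 fold change was 0.43 (SE 0.18, 95% interval 0.06 to 0.80) with an unadjusted p of 0.0241 and an adjusted p of 0.999 in edgeR, and it was 0.21 without the 0 ppm libraries 1 and 2.

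*Slc30a10* (ENSMUSG00000026614, chr1:185454848-185468762) encodes a ZnT family protein that mainly exports manganese. It measured 29.4, 28.8, 36.6 and 30.5 CPM in the 0 ppm brains and 35.9, 34.3, 38.5 and 36.3 CPM in the 50 ppm brains. As in *Slc39a12* and *Slc30a3*, the 0 ppm replicate 3 was the highest control, here above 3 of the 4 exposed brains. The mean was 31.3 ± 3.60 CPM (SD, n = 4) at 0 ppm and 36.3 ± 1.74 CPM at 50 ppm. The log2 fold change was 0.21 (SE 0.09, 95% interval 0.02 to 0.40) with an unadjusted p of 0.0312 and an adjusted p of 0.999 in edgeR, and it was 0.11 without the 0 ppm libraries 1 and 2. Antisense genes share 9.1%, 8.9% and 2.4% of the exon length of *Slc30a10*, *Slc30a1* and *Slc30a4*, and their counts are uncertain to that extent because the strand setting of the counting is not given in the sources used here.

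**Figure D2:**
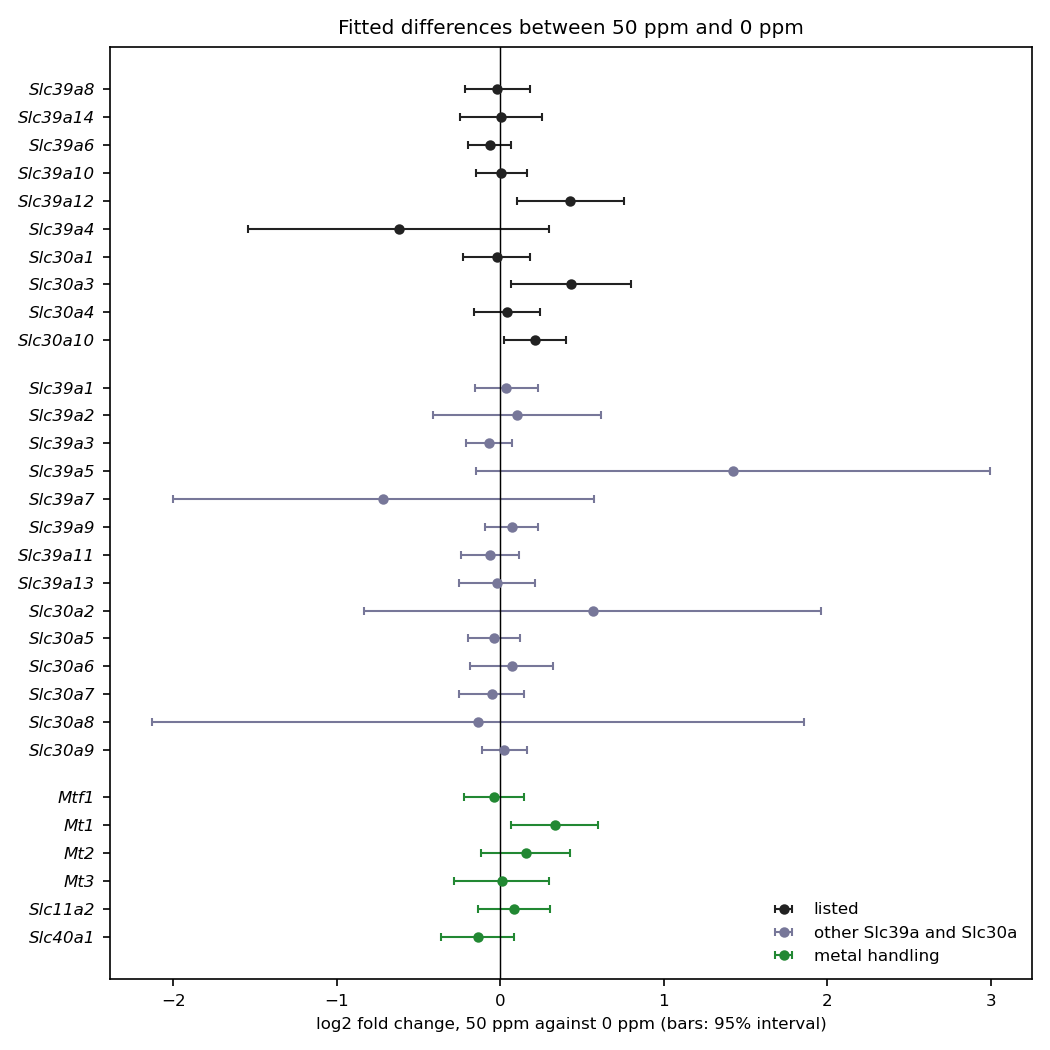
Log2 fold change between 50 ppm and 0 ppm (points) with its 95% interval (bars) for the 10 listed genes, the other 14 *Slc39a* and *Slc30a* genes and 6 metal handling genes. The intervals of *Slc39a12*, *Slc30a3*, *Slc30a10* and *Mt1* lie above 0 before adjustment, and the widest belong to genes with few counts.

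The 0 ppm libraries 1 and 2, which held almost no hindbrain and spinal cord marker RNA, were the lowest 2 of the 8 brains in each of *Slc39a12*, *Slc30a3* and *Slc30a10*. Leaving out the lowest controls of a gene lowers its fitted difference by construction, and fewer controls give less power. The counts below therefore do not show what these differences rest on. The count of 3 genes at an unadjusted p under 0.05 changed with the libraries left out. It was 1 without the 0 ppm replicate 1 or without the 0 ppm replicate 2, 3 without the 0 ppm replicate 3, 2 or 3 with any other library left out, and 0 without both of the 0 ppm libraries 1 and 2, where 4.28% of all genes had such a p. In that fit 4 of the 10 log2 fold changes were above 0 and 6 below, with a median of -0.02, and *Slc39a6* was at -0.10, *Slc39a8* at -0.03, *Slc39a14* at -0.05, *Slc39a10* at -0.0089 and *Slc39a4* at -0.89. The smallest adjusted p of the 10 over all alternatives was 0.294, for *Slc39a12* without the 0 ppm replicate 3, and its adjusted p ranged up to 1 in the others. The direction of *Slc39a12*, *Slc30a3* and *Slc30a10* was the same in all 14 alternatives.

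**Figure D3:**
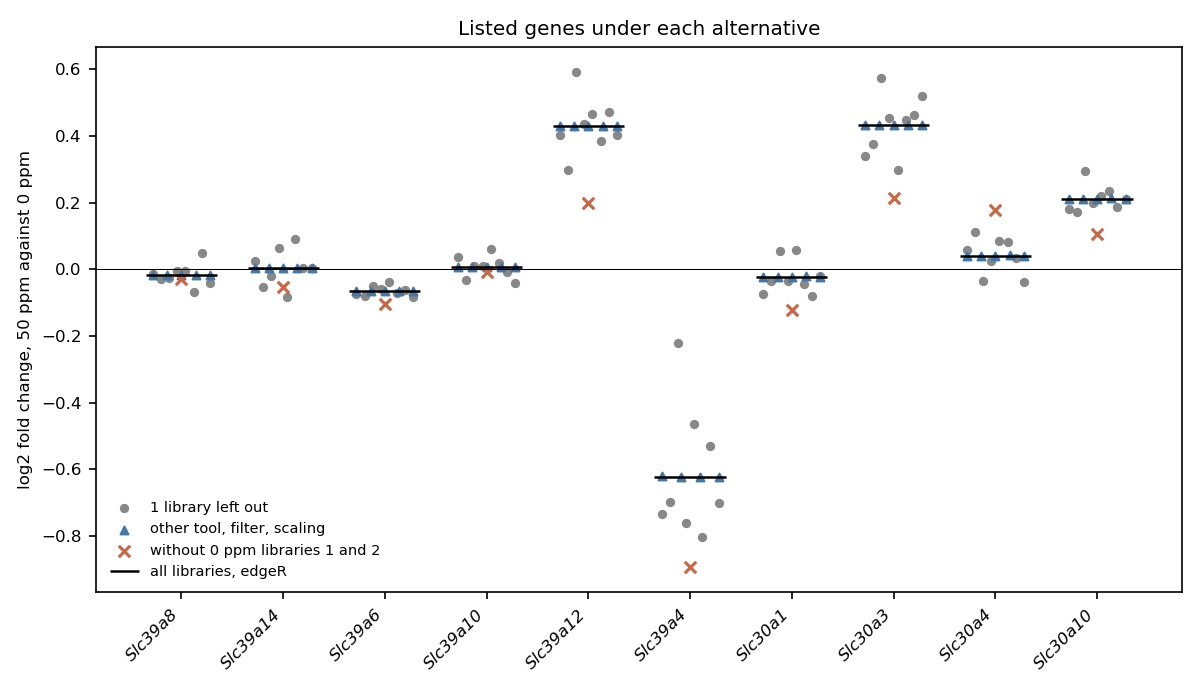
Log2 fold change of each listed gene with all libraries (black line), with 1 library left out (grey), with another tool, filter or scaling (blue triangles) and without the 0 ppm libraries 1 and 2 (orange crosses). *Slc39a12* ranges from 0.20 to 0.59, and *Slc39a4*, which has few counts, from -0.89 to -0.22.

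Compared per length, as CPM per kilobase of exon (RPKM), the 10 genes differed widely in level. *Slc39a6* was highest at 40.8 RPKM averaged over the 8 brains, followed by *Slc39a10* (28.2), *Slc30a4* (16.7), *Slc30a1* (9.47), *Slc30a10* (5.79), *Slc39a12* (3.16), *Slc39a8* (2.77), *Slc30a3* (2.01), *Slc39a14* (1.64) and *Slc39a4* (0.107 RPKM). From *Slc39a6* down to *Slc39a12*, neighbours in this order did not overlap in any of the 8 brains. The ranges of *Slc39a12* and *Slc39a8* overlapped, and *Slc39a12* was the higher of the pair in 5 of 8 brains. *Slc39a8* exceeded *Slc30a3* in 7 of 8 brains and *Slc30a3* exceeded *Slc39a14* in 6 of 8, with overlapping ranges. The step from *Slc39a14* down to *Slc39a4* was 15.4-fold. These levels depend on the exon lengths of the annotation, which joins all transcripts of a gene.

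The spread between control brains also differed among the members. It includes counting error, which is larger for genes with few counts and whose part was not tested. In the 0 ppm libraries *Slc39a4* had 7 to 21 counts and *Slc39a6* 4427 to 5367. The coefficient of variation at 0 ppm was 2.26% for *Slc39a8* and 2.93% for *Slc39a6*, against 24.8% for *Slc39a12*, 20.9% for *Slc30a3* and 48.2% for *Slc39a4*. For *Slc30a10* it was 11.5%, for *Slc30a1* 11.2% and for *Slc30a4* 12.8%. Several of these values rest on the 0 ppm replicate 3, and without it, a choice made after seeing the data, they were 10.5% for *Slc39a4*, 2.94% for *Slc30a10*, 5.25% for *Slc30a1*, 8.61% for *Slc30a4*, 13.8% for *Slc30a3* and 17.7% for *Slc39a12*, against 2.37% for *Slc39a8* and 2.49% for *Slc39a6*. For *Slc39a14* and *Slc39a10* the spread was larger without that library, at 12.5% after 10.9% and 7.02% after 5.74%.

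The other members of both families were read for comparison. Of these 14 genes, 0 passed edgeR's adjusted threshold and 0 passed DESeq2's, 0 had an unadjusted p under 0.05 in edgeR, and their median log2 fold change was 0.0011, with 7 above 0 and 7 below. In the fit without the 0 ppm libraries 1 and 2, 4 were above 0 and 10 below, with a median of -0.05 and 0 at an unadjusted p under 0.05. Per length, the highest of them were *Slc39a3*, a plasma membrane importer (19.9 RPKM, log2 fold change -0.07, SE 0.07), and *Slc30a9* (13.2 RPKM, log2 fold change 0.02, SE 0.07). All 14 *Slc39a* genes together amounted to 131.2 ± 1.70 RPKM (SD, n = 4) at 0 ppm and 129.6 ± 4.11 RPKM at 50 ppm, of which the 6 listed genes made up 58.8%. The 10 *Slc30a* genes together amounted to 60.3 ± 1.19 RPKM at 0 ppm and 62.1 ± 3.32 RPKM at 50 ppm, of which the 4 listed genes made up 55.6%. *Slc39a7*, singled out after its values were seen, had 1 to 11 counts per library. Exons of another gene on the same strand cover 80.7% of its length, so its level is uncertain and the *Slc39a* sum may be too low.

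**Figure D4:**
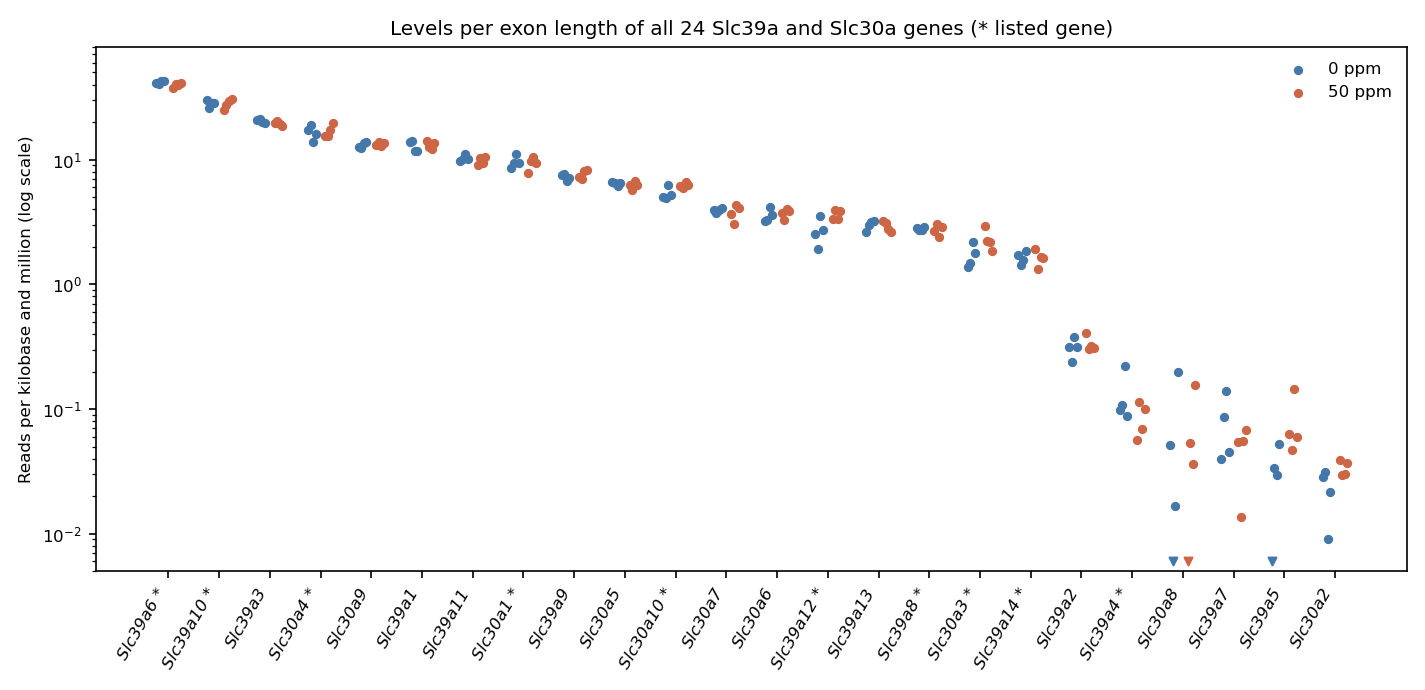
RPKM (log axis) of all 24 *Slc39a* and *Slc30a* genes in each brain, ordered by their mean, with listed genes starred and values of 0 drawn as triangles at the lower edge. *Slc39a6* and *Slc39a10* are the highest, and *Slc39a4* is among the 6 genes below 1.

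Metallothioneins and *Mtf1* belong to a list of genes that sense, buffer or carry metals. Of the 16 metal handling genes, 15 passed the filter (*Mt4* was at 0 in all libraries), 0 passed the adjusted threshold in edgeR or DESeq2 and 1 had an unadjusted p under 0.05 in edgeR, and the median log2 fold change was -0.03. That gene was the metallothionein *Mt1*, at 11.4, 16.1, 16.5 and 14.02 CPM in the 0 ppm brains and 15.2, 20.01, 18.1 and 19.9 CPM in the 50 ppm brains. The exposed brains included 3 above all controls, and the log2 fold change was 0.33 (SE 0.13, edgeR adjusted p = 0.999). In the fit without the 0 ppm libraries 1 and 2 it was 0.26, with an unadjusted p of 0.0788, and the 1 metal handling gene with an unadjusted p under 0.05 was *Tmem163*, named after its value was seen (log2 fold change -0.22, adjusted p = 0.998). The median of the metal handling genes in that fit was 0.03, with 8 of 15 above 0, against 6 of 15 with all libraries. With all libraries, the neighbours of *Mt1* on chromosome 8, *Mt2* (0.16, SE 0.13) and *Mt3* (0.0096, SE 0.14), the sensor *Mtf1* (-0.04, SE 0.09), the iron and divalent metal importer *Slc11a2* (0.08, SE 0.10) and the iron exporter *Slc40a1* (-0.14, SE 0.11) had smaller log2 fold changes. Exons on the opposite strand cover 73.5% of *Mt2*, whose counts are therefore uncertain.

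Marker lists of several cell types also varied between libraries and were compared between doses. In bulk tissue, fewer cells of a type and less RNA per cell cannot be told apart. Over all genes tested, 49% had a log2 fold change above 0, and 2.31% had an unadjusted p under 0.05 with a higher and 1.44% with a lower level at 50 ppm. These shares without the 0 ppm libraries 1 and 2 were 50%, 2.24% and 2.04%. Astrocyte and radial glia markers had a log2 fold change above 0 in 8 of 8 genes, 5 of them at an unadjusted p under 0.05 and 0 after adjustment in edgeR. In the fit without the 0 ppm libraries 1 and 2, 8 of 8 were above 0 and 4 had such a p. Their summed level was 1233, 1044, 1303 and 1170 CPM in the 0 ppm brains and 1423, 1417, 1313 and 1585 CPM in the 50 ppm brains, with *Slc1a3* the most abundant (355.2 CPM on average). The lowest exposed brain lay just above the highest control, and the 0 ppm replicate 2 was the lowest and the 0 ppm replicate 3 the highest control in this sum, as in *Slc39a12*, while the 0 ppm replicate 1 was above replicate 4 in the sum and below it in *Slc39a12*. The part of astrocyte and radial glia RNA in the *Slc39a12* values was not tested.

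Markers of cortical glutamatergic neurons, a cell class known for *Slc30a3*, summed to 849.3, 766.2, 399.0 and 552.3 CPM in the control brains and 571.4, 572.2, 677.8 and 589.9 CPM in the exposed brains. The 2 controls with the most of these markers, led by *Neurod6*, had the lowest *Slc30a3*, and 4 of the 5 markers had a log2 fold change below 0 and 0 an unadjusted p under 0.05 in edgeR. Without the 0 ppm libraries 1 and 2, all 5 were above 0 and 3 had such a p, so that the direction of this list turned with these controls. The hindbrain and spinal cord sum, given above, was highest in the 50 ppm replicate 1, which also had the highest *Slc30a3*, and all 6 tested genes of that list had an unadjusted p under 0.05 with a higher level at 50 ppm and 0 passed the adjustment in edgeR. That count was 4 of 6 without the 0 ppm libraries 1 and 2, and the median log2 fold change of the list moved from 1.856 to 0.8729. Those libraries were singled out for their low sum of this same list, so this fall follows from the choice and is not a separate result. The other 2 controls had sums near those of 3 of the exposed brains. Oligodendrocyte markers were higher in 6 of 6 genes, 1 of them past edgeR's adjusted threshold, with sums of 118.9, 106.4, 141.2 and 130.3 CPM in the control brains and 193.8, 208.0, 142.5 and 214.3 CPM in the exposed brains, led by *Mbp*. All 6 of them had an unadjusted p under 0.05 without the 0 ppm libraries 1 and 2 as well, and 0 then passed the adjusted threshold. In the paper's DESeq2 analysis several oligodendrocyte markers, *Mbp* among them, had an adjusted p under 0.05. Forebrain markers, led by *Lhx2*, summed to 212.3, 214.3, 190.6 and 190.9 CPM in the control brains and 153.8, 170.1, 187.5 and 168.6 CPM in the exposed brains, and 4 of the 5 had an unadjusted p under 0.05 with a lower level at 50 ppm, or 3 of 5 without the 0 ppm libraries 1 and 2, and 0 passed the adjusted threshold in edgeR in either fit. The part of these cell classes and regions in the transporter values was not tested.

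Meninges markers summed to 590.5, 521.4, 588.7 and 499.5 CPM in the control brains and 786.3, 629.3, 660.8 and 639.6 CPM in the exposed brains, without overlap between the doses. This separation rests on *Ptgds*, since the other 4 markers summed to 321.3, 263.6, 373.6 and 270.8 CPM in the control brains and 336.3, 295.2, 369.3 and 336.3 CPM in the exposed brains and overlapped between the doses in 4 of 4 genes. *Ptgds*, the most abundant of them, was above all controls in 4 of 4 exposed brains (edgeR adjusted p = 0.300) and was the 1 gene of 5 with an unadjusted p under 0.05, a count that was also 1 of 5 without the 0 ppm libraries 1 and 2. The part of meninges in the transporter values was not tested. The remaining lists are given by their range of sums. Brain endothelium (250.8 to 308.5 CPM, led by *Slco1c1*), choroid plexus (356.7 to 1212 CPM, led by *Ttr*) and blood (90.2 to 368.0 CPM, led by *Hbb-bs*) had no gene with an unadjusted p under 0.05 in edgeR, with all libraries or without the 0 ppm libraries 1 and 2. The choroid plexus list turned direction between these fits, from 1 of 6 genes above 0 (median log2 fold change -0.20) to 6 of 6 (median 0.14), and the 0 ppm replicate 2 had its highest sum. Endothelium had 4 of 6 above 0 and blood 1 of 4 in both fits. Of the neuronal markers, 5 of 5 tested genes were above 0 with all libraries and 4 of 5 without those controls, and 0 had an unadjusted p under 0.05 in either fit. Pericytes (156.9 to 236.0 CPM, led by *Rgs5*) had 2 of 4 such genes and microglia (62.9 to 89.6 CPM, led by *Csf1r*) 3 of 5, all with a higher level at 50 ppm, and 1 of 4 and 2 of 5 without the 0 ppm libraries 1 and 2. None of the genes in these lists or among the meninges markers passed the adjusted threshold in edgeR.

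**Figure D5:**
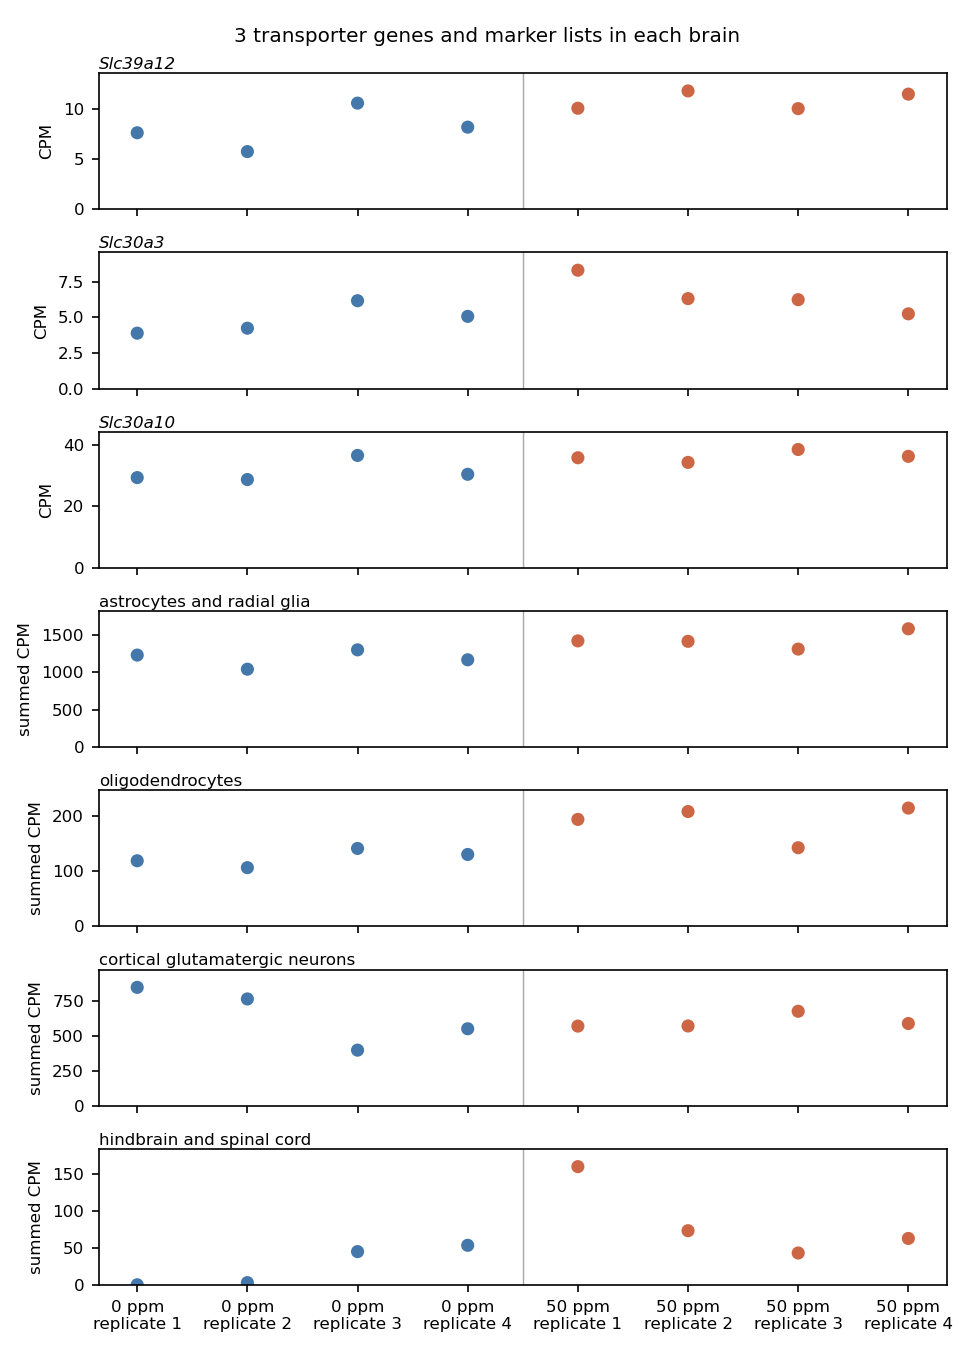
CPM of *Slc39a12*, *Slc30a3* and *Slc30a10* and summed CPM of 4 marker lists in each brain (0 ppm in blue, 50 ppm in orange; axes start at 0). The 0 ppm libraries 1 and 2 are near 0 in the hindbrain and spinal cord sum and are the lowest 2 of 8 in each transporter gene.

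The genes whose log2 CPM followed these 3 transporters most closely over the 8 brains were sought among the 16532 genes that reached 10 counts in 4 or more libraries. For *Slc39a12* they were *Fbxo2* (Pearson r = 0.991), *Cdk14* (0.970) and *Ttyh1* (0.970). For *Slc30a3* they were *Tcerg1l* (0.953), *Cntnap1* (0.951) and *Coro6* (0.941), and for *Slc30a10* they were *Ano5* (0.967), *Cep85l* (0.967) and *Rida* (0.956). These values are the highest of many and share the same 8 libraries and the same doses, so they are a description only.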

How the data were processed

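The deposited values are read counts by gene, not normalized by the authors, for 8 poly(A) RNA libraries of whole brain aligned to the C57BL/6J genome. Per the paper's methods, initial bases were trimmed, reads were aligned with STAR to GRCm38 and counted with htseq-count. The methods name the Ensembl release of the reference. Tool versions and the strand setting are not given in the sources used here. The labels name a directional library kit. Counts on the CAST/EiJ genome were not used here, since the tables at hand do not pair its identifiers with these symbols. All sample columns of the C57BL/6J table were used. In the 12 comparisons of brains within a dose, counts differed beyond sampling noise (chi-square per degree of freedom 9.28 to 22.7).

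Symbols came from Ensembl tables (49326 of 49585 identifiers named), coordinates and exon lengths from GENCODE M21 on GRCm38, a later release than that reference, so gene models may differ from those counted on, and promoters from RefSeq. The members and lists were chosen with earlier results of these data known. A gene was kept if 2/3 of the libraries or fewer had 0 counts. Counts were normalized by TMM (factors 0.986 to 1.02) and tested with edgeR 4.0.16 (glmQLFit, glmQLFTest) in R 4.3.3, with dose as the only term and p-values adjusted over all tested genes by Benjamini-Hochberg, threshold 0.05. The SE is the absolute log2 fold change divided by the square root of F, and 95% intervals use the t distribution with the degrees of freedom of the fit. RPKM is CPM per kilobase of joined exons. A count of 0 allows up to 3 counts, or 0.098 to 0.132 CPM, for counting error only. The code was tested on simulated data.

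Named were the 10 listed genes, other family members with an unadjusted p under 0.05 or the highest RPKM of their family, *Mtf1*, *Mt1*, *Mt2*, *Mt3*, *Slc11a2*, *Slc40a1* and further metal handling genes with an unadjusted p under 0.05, the most abundant gene of each of 12 marker lists, and for the 3 listed genes with the smallest p the 3 genes with the highest Pearson r of log2 CPM (prior count 2). *Slc39a7*, *Mt4*, *Tmem163*, *Tubb3*, *Hoxa3* and *Hoxa4* were named after their values were seen. Alternatives were DESeq2 1.42.0, DESeq2's size factors in edgeR, no filter beyond dropping genes at 0 throughout, a minimum of 10 counts in 4 or more libraries, a robust edgeR fit, each library left out, and, chosen after seeing the data, both 0 ppm libraries 1 and 2 left out. Plots used matplotlib 3.10.9 and Python 3.11.15.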

Additional observations from a re-analysis of the deposited data

Results flagged for a closer look

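In 36 groups of 4 values, 18 named genes at each dose, 2 held a brain far from the other 3, and chance alone gives about 1 in 20. *Slc39a4* measured 0.686 CPM (21 counts) in the 0 ppm replicate 3, where the other control brains lay between 0.271 and 0.335 CPM. *Slc11a2* measured 45.2 CPM in the 50 ppm replicate 3, where the other exposed brains lay between 51.7 and 52.9 CPM.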

How the results depend on the processing

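The 10 listed genes, the other 14 family members and the metal handling genes had 0 calls in edgeR under every alternative with an edgeR fit, and 0 calls in DESeq2. The median log2 fold change of the 10 moved by less than the spread between control brains in all 14 alternatives. The number of all genes called was 4, and 18 with DESeq2, 52 without a filter, 2 where 10 counts in 4 or more libraries were required, 7 without the 0 ppm libraries 1 and 2 (chosen after seeing the data), and 2 to 20 with 1 library left out. The cause was not tested. *Slc39a4* could not be fitted with the stricter filter, which removed it.

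When single libraries were left out, log2 fold changes crossed 0 for *Slc39a8* (-0.07 to 0.05), *Slc39a14* (-0.08 to 0.09), *Slc39a10* (-0.04 to 0.06), *Slc30a1* (-0.08 to 0.06), *Slc30a4* (-0.04 to 0.11), *Slc30a9* (-0.0012 to 0.05), *Mtf1* (-0.06 to 0.0049), *Mt3* (-0.11 to 0.17) and *Slc11a2* (-0.03 to 0.16). Without the 0 ppm libraries 1 and 2 it changed sign for *Slc39a14* (-0.05), *Slc39a10* (-0.0089), *Slc30a9* (-0.04), *Mtf1* (0.03) and *Mt3* (-0.20). All of these values were near 0 with all libraries, none was past the threshold in any fit, and the cause was not tested. *Slc39a12*, *Slc30a3*, *Slc30a10*, *Slc39a6*, *Slc39a3*, *Mt1*, *Mt2* and *Slc40a1* had the same direction in 14 of 14 alternatives and *Slc39a4* in 13 of 13. Their sizes moved with 1 library left out, over 0.30 to 0.59 for *Slc39a12*, 0.30 to 0.57 for *Slc30a3* and 0.17 to 0.30 for *Slc30a10*. For *Slc39a6* the range was -0.08 to -0.04, for *Slc39a3* -0.09 to -0.05 and for *Slc40a1* -0.21 to -0.07. It was 0.23 to 0.42 for *Mt1*, 0.07 to 0.27 for *Mt2* and -0.80 to -0.22 for *Slc39a4*.

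No paired analysis was possible because the replicate numbers follow the order of the samples and the labels tie no exposed pup to a control pup. Depth limits the genes below 1 CPM, among the 10 listed only *Slc39a4*.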
